A study of Mus musculus with 8 samples.

Results

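The matrix metalloproteinases (MMPs) and tissue inhibitors of metalloproteinases (TIMPs) described here are 10 genes of the 23356 in the expression table, the 7 protease genes Mmp8, Mmp9, Mmp12, Mmp13, Mmp14, Mmp19 and Mmp25 and the inhibitor genes Timp1, Timp2 and Timp3. They were selected by name from the 27 Mmp and Timp genes of the table, and the names were chosen with measured values of the same groups known. Their levels and the differences between groups are therefore given as a description, without a test. RNA was sequenced from bone marrow-derived dendritic cells (BMDCs), which were grown from mouse marrow with GM-CSF and IL-4. The study asked which transcripts change when microtubules are destabilized and which of these changes need GEF-H1, a RhoA exchange factor encoded by Arhgef2 that is held on microtubules.

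The 4 groups, with 2 libraries each, were untreated WT DCs, WT DCs treated with ansamitocin-P3, untreated DCs without GEF-H1 (Arhgef2-/-) and treated Arhgef2-/- DCs. Ansamitocin-P3 is a maytansinoid that binds tubulin and destabilizes microtubules, and was given at 100 nM for 5 h. The sample labels give a C57BL/6 background for all mice, and the study's methods name the substrain C57BL/6N. Both untreated and treated Arhgef2-/- DCs came from mice that lacked Arhgef2 throughout, so that the marrow cells carried the deletion during the whole culture. The study's methods give an age range of adult mice for all its experiments together, not an age for each library. The unit is FPKM, the fragments of a gene scaled to transcript length and library size, and the table has 1 FPKM per gene and group in which Cuffdiff combined both libraries. No SD, n or p-value can be taken from such values, and each level is given with the 95% interval of Cuffdiff. The depth that the libraries reached is unknown, since the study's methods name a target and fragment numbers cannot be read back from FPKM.

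MMPs are zinc-dependent endopeptidases, most of them secreted as inactive proenzymes, that cleave collagens, gelatin, elastin and other matrix proteins as well as cytokines and cell surface proteins. TIMPs bind the active site of the enzymes and block it. In dendritic cells and other myeloid cells, MMPs are known for their part in migration through basement membranes and interstitial matrix.

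Arhgef2 itself was at 42.3 FPKM (34.5 to 50) in untreated WT and 45.9 FPKM (36.9 to 54.9) in treated WT DCs. It was at 4.59 FPKM (3.54 to 5.63) in untreated and 4.16 FPKM (3.22 to 5.11) in treated Arhgef2-/- DCs. The intervals of both WT groups lay above those of both Arhgef2-/- groups, as the genotype labels have it, and the drug's 2 groups overlapped within each genotype.

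A gene was called higher or lower in a comparison when the log2 ratio of FPKM + 1 was over 1 or under -1, among the 11397 genes that reached 1 FPKM in some group. All 10 MMP and TIMP genes were among them, Mmp13 and Timp3 with 1.63 and 1.3 FPKM in untreated WT DCs. In WT DCs, 6 of the 10 were called higher after ansamitocin-P3 (3.66% of all genes were) and 0 lower (1.28% of all genes). In Arhgef2-/- DCs, 0 were called higher (0.807% of all genes) and 0 lower (0.272%). Because the genes were chosen on these values, the counts were not read against the shares. Untreated WT DCs had the lowest FPKM of the 4 groups for each of the 10 genes, although the interval overlapped that of another group for several of them.

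**Figure D1:**
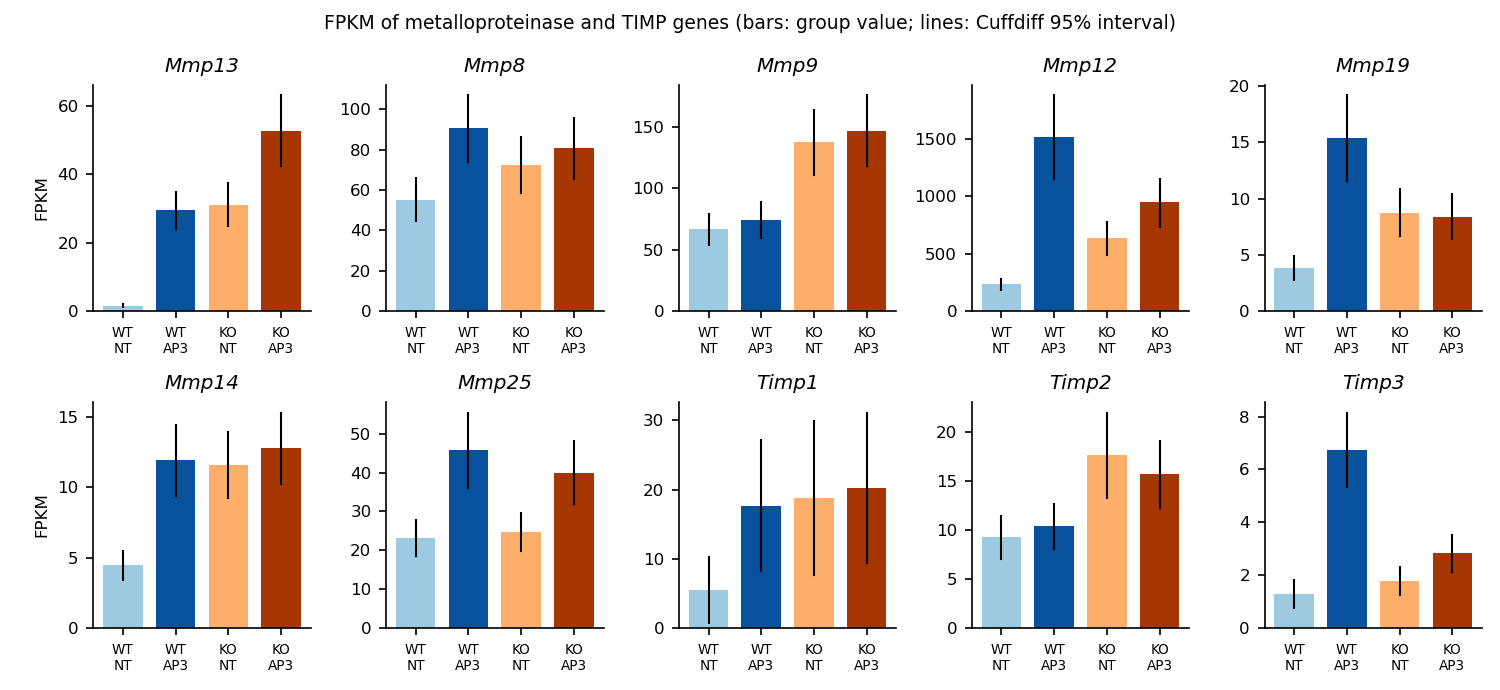
FPKM of the 10 genes (vertical axes, each from 0) in untreated (NT) and ansamitocin-P3-treated (AP3) DCs of WT and Arhgef2-/- (KO) mice, with bars for the group value and lines for the Cuffdiff 95% interval. Mmp13 stands at 1.63 FPKM in untreated WT DCs and between 29.5 and 52.8 FPKM in the other groups, and Mmp12 reaches 1520 FPKM in treated WT DCs.

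Mmp13, Mmp12 and Mmp8 lie in the MMP cluster on chromosome 9, and the bases before their start sites are shown because these neighbours differed in how far they moved with the drug and with the genotype. The sequences are from RefSeq (GRCm38.p6, plus strand), cover the 120 bases before a start site of each gene and hold 0 annotated exons. They are chr9:7272394-7272513 for Mmp13, chr9:7347254-7347373 for Mmp12, before the start site at which its locus in the table begins, and chr9:7558309-7558428 for Mmp8. Capitals mark the letters TGAGTCA on either strand, the sequence that AP-1 factors are known to bind.

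Mmp13: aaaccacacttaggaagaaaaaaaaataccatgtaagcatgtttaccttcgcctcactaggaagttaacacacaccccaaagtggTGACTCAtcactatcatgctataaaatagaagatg

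Mmp12: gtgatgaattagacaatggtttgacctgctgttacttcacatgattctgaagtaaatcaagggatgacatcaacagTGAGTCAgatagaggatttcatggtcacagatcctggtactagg

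Mmp8: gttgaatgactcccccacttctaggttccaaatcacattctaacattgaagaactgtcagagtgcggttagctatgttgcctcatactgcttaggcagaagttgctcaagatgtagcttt

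The AP-1 letters were searched on both strands, as TGAGTCA and TGACTCA, in windows from 250 bases before to 50 after each start site, of which the reference holds 32851. They stood in 5.2% of all windows, and 5.95% of all genes with a window had a match. Of the 10 genes, 8 had a window (Mmp9 and Mmp19 had none). The letters were found for Mmp13, 35 bases before the start as TGACTCA. For Mmp12 they stood as TGAGTCA, 44 bases before the start site at 7347374. The other Mmp12 window, at the RefSeq gene start of 7344397, did not hold them. Mmp8, Mmp14, Mmp25, Timp1, Timp2 and Timp3 had no match in these windows. The letters AGGAAG, a core that ETS factors are known to bind, with CTTCCT as their complement, stood in 35.4% of all windows. By gene, 38.4% of all genes with a window had a match, and so did each of the 8 genes except Timp2. For Mmp12 this match was in the window at 7344397 and not in the one with the AP-1 letters. A match describes the letters and is not evidence of binding.

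Mmp13, or collagenase-3, cleaves fibrillar collagens and lies on chromosome 9 from 7272514 to 7283333. Its FPKM was 1.63 (1.16 to 2.09) in untreated WT, 29.5 (23.9 to 35) in treated WT, 31.2 (24.8 to 37.5) in untreated Arhgef2-/- and 52.8 (42.4 to 63.2) in treated Arhgef2-/- DCs. Untreated WT DCs were far below the other groups, treated WT and untreated Arhgef2-/- DCs overlapped, and treated Arhgef2-/- DCs were above all. Treated over untreated, FPKM was 18.1-fold higher in WT and 1.69-fold higher in Arhgef2-/- DCs. On the log2 scale of FPKM + 1, which understates the change of low genes, the drug's differences were 3.53 (3.17 to 3.90) and 0.74 (0.34 to 1.14). The genotype difference was 19.2-fold in untreated cells and 1.79-fold in treated cells, Arhgef2-/- being higher in both. Among genes with an OK status in the table, Mmp13 ranked 10396 by FPKM in untreated WT and 2760 in untreated Arhgef2-/- DCs.

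Mmp8, or neutrophil collagenase, is also encoded in the chromosome 9 cluster, from 7558429 to 7568486. It was at 55.2 FPKM (44.5 to 65.8) in untreated WT, 90.7 (74 to 107) in treated WT, 72.3 (58.5 to 86.1) in untreated Arhgef2-/- and 80.8 (65.6 to 95.9) in treated Arhgef2-/- DCs. The intervals were apart for the drug in WT DCs and overlapped in the other 3 comparisons of 2 groups. The ratio of treated to untreated FPKM was 1.64 in WT and 1.12 in Arhgef2-/- DCs, below the threshold in both. Over the 4 groups Mmp8 had a far narrower range than Mmp13 in the same cluster, 0.71 against 4.36 on the log2 scale.

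Mmp12, the macrophage metalloelastase, cleaves elastin and had the highest FPKM of the 10 genes in each group. The RefSeq gene spans 7344397 to 7360461 on chromosome 9, plus strand. Mmp12 was at 233 FPKM (180 to 282) in untreated WT, 1520 (1156 to 1883) in treated WT, 635 (490 to 777) in untreated Arhgef2-/- and 951 (733 to 1156) in treated Arhgef2-/- DCs. Untreated WT DCs were below all other groups. Treated WT DCs were above untreated Arhgef2-/- DCs, and the intervals of treated WT and treated Arhgef2-/- DCs met at 1156 FPKM. The drug's ratio was 6.53 in WT and 1.5 in Arhgef2-/- DCs. In Arhgef2-/- DCs the intervals of both groups overlapped, while the propagated interval of the log2 difference of 0.58 ran from 0.12 to 1.04.

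Mmp12 ranked 58 among these genes by FPKM in treated WT DCs and 340 in untreated WT DCs. It made up 60% of the summed FPKM of the 7 MMPs in untreated WT, 85% in treated WT, 68.9% in untreated Arhgef2-/- and 73.6% in treated Arhgef2-/- DCs. The sum of the 7 MMPs was 388, 1788, 922 and 1293 FPKM in that order, and without Mmp12 it was 155, 267, 286 and 342 FPKM. The sum was thus highest in treated WT DCs with Mmp12 and in treated Arhgef2-/- DCs without it. The sum of the 3 TIMPs was 16.1, 34.8, 38.3 and 38.8 FPKM. The FPKM of all genes with an OK status added up to 604772, 734144, 594706 and 612810, so the groups did not share a common total.

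Mmp9, or gelatinase B, degrades denatured collagen and type IV collagen and is encoded on chromosome 2, from 164940326 to 164955850. It was at 66.7 FPKM (53.9 to 79.3) in untreated WT and 74.3 (59.2 to 89.2) in treated WT, against 138 (111 to 164) in untreated and 147 (118 to 176) in treated Arhgef2-/- DCs. Both Arhgef2-/- groups were above both WT groups, with intervals apart, and the drug's groups overlapped within each genotype. Arhgef2-/- DCs had 2.07-fold the WT level without the drug and 1.98-fold with it. The drug's difference on the log2 scale was 0.15 in WT and 0.09 in Arhgef2-/- DCs.

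Mmp14, or MT1-MMP, is anchored in the membrane and activates pro-MMP2. It is encoded on chromosome 14, from 54431598 to 54442456. Mmp14 was at 4.46 FPKM (3.45 to 5.48) in untreated WT, 11.9 (9.4 to 14.4) in treated WT, 11.6 (9.25 to 13.9) in untreated Arhgef2-/- and 12.8 (10.2 to 15.3) in treated Arhgef2-/- DCs. Untreated WT DCs were below the other groups, which overlapped one another. The ratio of treated to untreated was 2.67 in WT and 1.1 in Arhgef2-/- DCs, and the untreated genotypes differed 2.59-fold.

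Mmp25, the GPI-anchored leukolysin of neutrophils, is encoded on the minus strand of chromosome 17, from 23628315 to 23645269. Its FPKM was 23.1 (18.5 to 27.7) in untreated WT, 45.7 (35.9 to 55.4) in treated WT, 24.8 (19.8 to 29.7) in untreated Arhgef2-/- and 40 (31.8 to 48.1) in treated Arhgef2-/- DCs. The treated groups were above the untreated groups in both genotypes, with intervals apart, and the genotypes overlapped with and without the drug. The drug's ratio was 1.97 in WT and 1.61 in Arhgef2-/- DCs. The log2 differences, 0.95 and 0.67, were both under the threshold.

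Mmp19 is a secreted MMP that cleaves basement membrane components, encoded on chromosome 10 from 128790910 to 128800827. It was at 3.83 FPKM (2.79 to 4.87) in untreated WT, 15.4 (11.6 to 19.2) in treated WT, 8.76 (6.65 to 10.9) in untreated Arhgef2-/- and 8.41 (6.37 to 10.4) in treated Arhgef2-/- DCs. Untreated WT DCs were lowest, treated WT DCs highest, and both Arhgef2-/- groups lay between them and overlapped. The drug's ratio was 4.03 in WT and 0.959 in Arhgef2-/- DCs. Tmem198b lies on the opposite strand over part of Mmp19 and was at 5.85, 20, 7.47 and 9.43 FPKM in the same order of groups. The libraries were made with a strand-specific kit, but whether strand was used in counting for this table is not given in the sources used here. Without strand, reads from the stretch that both genes share cannot be told apart.

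Timp1 is an inhibitor of most secreted MMPs and lies inside Syn1 on the opposite strand of the X chromosome, from 20870166 to 20874737. It was at 5.49 FPKM (0.732 to 10.3) in untreated WT, 17.7 (8.24 to 27.1) in treated WT, 18.8 (7.69 to 29.9) in untreated Arhgef2-/- and 20.2 (9.41 to 31.1) in treated Arhgef2-/- DCs. The value of untreated WT DCs was the lowest, but all intervals overlapped, the widest spanning 173% of its FPKM. The ratio was 3.22 for the drug in WT and 3.42 for the genotypes without the drug, both past the threshold. The propagated intervals of these log2 differences, 0.24 to 2.81 and 0.27 to 2.94, were wide and did not include 0. Syn1, a neuronal gene, was listed at 8.5, 12.7, 13.8 and 16.3 FPKM in these DCs, and how its reads and those of Timp1 were divided was not tested.

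Timp2, which inhibits MMPs and also takes part in the activation of pro-MMP2 by Mmp14, is encoded on the minus strand of chromosome 11, from 118301061 to 118355411. It was at 9.34 FPKM (7.02 to 11.5) in untreated WT, 10.4 (8.11 to 12.7) in treated WT, 17.7 (13.3 to 22) in untreated Arhgef2-/- and 15.7 (12.3 to 19.1) in treated Arhgef2-/- DCs. Arhgef2-/- DCs were higher, with intervals apart in untreated cells and overlapping in treated cells. The untreated genotypes differed 1.9-fold, under the threshold. Neither genotype differed between its treated and untreated cells beyond the intervals. Cep295nl lies within Timp2 on the same strand, from 118332360 to 118342542, and was not analysed here, so that reads from the span of both genes could not be told apart by strand.

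Timp3, the inhibitor that is bound to the matrix and also acts on ADAM proteases, is encoded on chromosome 10, from 86300412 to 86349505, within Syn3 on the opposite strand. Its FPKM was 1.3 (0.763 to 1.83) in untreated WT, 6.74 (5.34 to 8.15) in treated WT, 1.78 (1.25 to 2.3) in untreated Arhgef2-/- and 2.83 (2.12 to 3.53) in treated Arhgef2-/- DCs. Treated WT DCs were above all other groups, and the untreated genotypes overlapped. The drug's ratio was 5.18 in WT and 1.59 in Arhgef2-/- DCs. Syn3 was under 1 FPKM in each group, at 0.791 to 0.929.

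The drug's differences of the 10 genes ran from 0.14 to 3.53 in WT DCs, with a median of 1.38, and from -0.16 to 0.74 in Arhgef2-/- DCs, with a median of 0.15. The medians over all genes were 0.00 and -0.01. The intervals of treated and untreated cells were apart for 7 of the 10 in WT (16.8% of all genes in either direction) and for 2 of the 10, Mmp13 and Mmp25, in Arhgef2-/- DCs (3.70%). Called higher in WT were Mmp12, Mmp13, Mmp14, Mmp19, Timp1 and Timp3. When 5 FPKM was added before taking logs, Mmp14 (0.84) and Timp3 (0.90) were no longer past the threshold.

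The WT difference minus the Arhgef2-/- difference was over 1 for 6 of the 10 genes (1.36% of all genes) and under -1 for 0 (0.535%), with a median of 1.20 against 0.01 over all genes. It was 2.79 for Mmp13 (2.25 to 3.33) and 2.12 for Mmp12 (1.47 to 2.77), the largest of the 10. The order of these 2 depends on the pseudocount, since Mmp13 stood at 1.70 with 5 FPKM added, below Mmp12 at 2.10, and at 3.34 with 0.1 FPKM added. For Timp1 it was 1.42, with an interval from -0.27 to 3.11 that includes 0. With a pseudocount of 5 FPKM, Mmp14 (0.74) and Timp3 (0.69) were under the threshold here too. The interval excluded 0 for 6 of the 10 genes (8.29% of all genes in either direction), Mmp8, Mmp12, Mmp13, Mmp14, Mmp19 and Timp3. These intervals were propagated from those of Cuffdiff and hold no test against the duplicates.

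**Figure D2:**
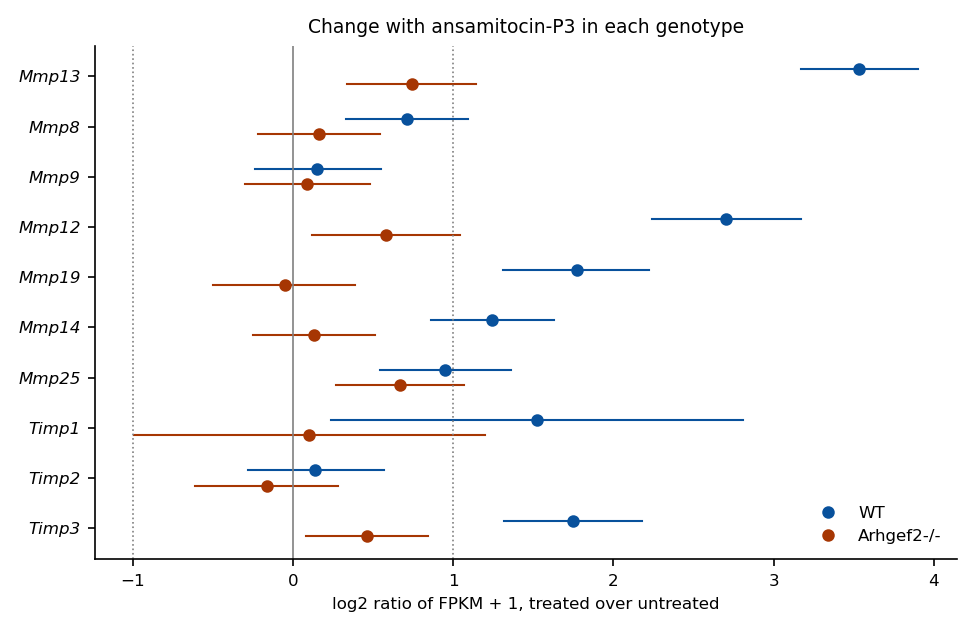
Log2 ratio of FPKM + 1, treated over untreated (horizontal axis), for each gene in WT and Arhgef2-/- DCs, with points for the ratio, lines for the propagated 95% interval and dotted lines at the threshold of 1 and -1. For Mmp13 the points stand at 3.53 and 0.74, for Mmp9 at 0.15 and 0.09.

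In untreated cells, 6 of the 10 genes were called higher in Arhgef2-/- than in WT DCs (1.26% of all genes) and 0 lower (0.614%). These were Mmp9, Mmp12, Mmp13, Mmp14, Mmp19 and Timp1, and the median over the 10 was 1.03, against -0.01 over all genes. With a pseudocount of 5 FPKM, Mmp14 (0.81) and Mmp19 (0.64) fell below the threshold and Mmp9 stood at it. The intervals were apart for 6 (4.74% of all genes in either direction), with Timp2 in place of Timp1. The untreated WT group also enters the drug's difference in WT DCs, so that a low value there raises both.

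In treated cells, 0 of the 10 were called higher in Arhgef2-/- DCs (2.0% of all genes) and 1, Timp3, lower (2.06%). Timp3 stood just past the threshold, at -1.01. Intervals were apart for 4 genes (13.7% of all genes in either direction), Mmp9 and Mmp13 being higher and Mmp19 and Timp3 lower in Arhgef2-/- DCs. The median over the 10 was -0.04, and -0.03 over all genes.

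**Figure D3:**
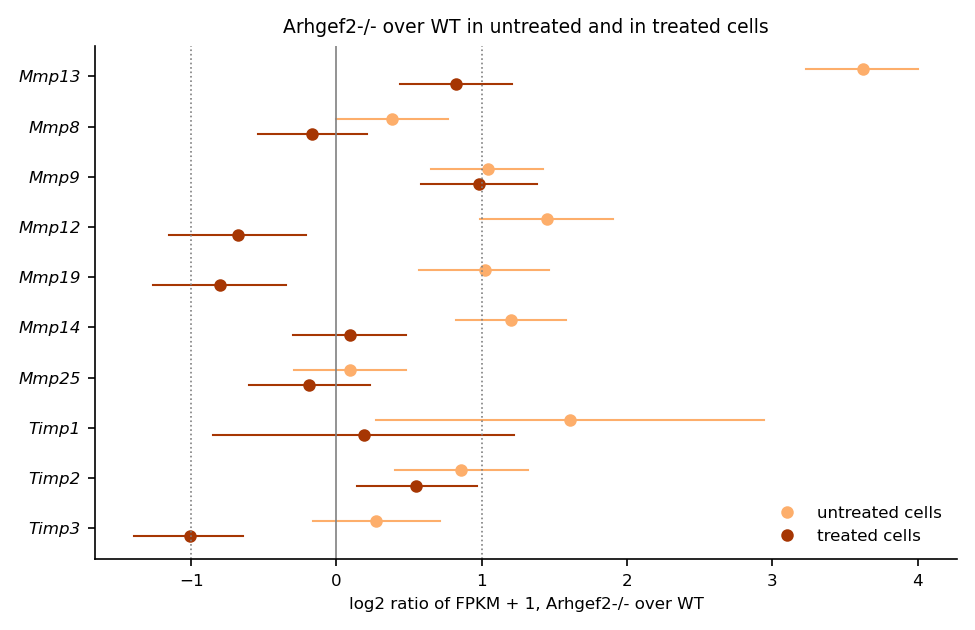
Log2 ratio of FPKM + 1, Arhgef2-/- over WT (horizontal axis), for each gene in untreated and treated DCs, with points for the ratio, lines for the propagated 95% interval and dotted lines at 1 and -1. Mmp12 stands at 1.45 in untreated and -0.68 in treated cells, while Mmp9 stands at 1.04 and 0.98.

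Untreated Arhgef2-/- and treated WT DCs, which share no library, had intervals apart for 6 of the 10 genes (22.0% of all genes in either direction). Mmp9 and Timp2 were higher in untreated Arhgef2-/- DCs, and Mmp12, Mmp19, Mmp25 and Timp3 were higher in treated WT DCs. The intervals overlapped for Mmp8, Mmp13, Mmp14 and Timp1, with ratios of untreated Arhgef2-/- to treated WT FPKM of 0.797, 1.06, 0.97 and 1.06.

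The remaining 17 Mmp and Timp genes of the table were mostly at low levels, 15 of them under 1 FPKM in every group. Mmp2, or gelatinase A, was at 3.9 FPKM (3.04 to 4.75) in untreated WT, 3.77 (2.93 to 4.6) in treated WT, 0.761 (0.524 to 0.991) in untreated Arhgef2-/- and 0.688 (0.466 to 0.918) in treated Arhgef2-/- DCs. It was lower in Arhgef2-/- DCs with intervals apart, and overlapped between treated and untreated cells. Mmp2 passed the filter only through the WT groups, so that its direction is tied to the selection and is no support. Mmp23 was at 9.08, 6.56, 6.85 and 5.87 FPKM, and all its intervals overlapped.

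The chromosome 9 cluster holds 10 Mmp genes over 427 kb with 0 other protein-coding genes between them. Mmp13, Mmp12 and Mmp8 were the cluster genes over 1 FPKM. Mmp10, or stromelysin-2, stood between Mmp12 and Mmp8 and was at 0.0127 FPKM (0 to 0.0517) in untreated WT, 0.638 (0.362 to 0.905) in treated WT, 0.0402 (0 to 0.129) in untreated Arhgef2-/- and 0.0947 (0 to 0.181) in treated Arhgef2-/- DCs. It was thus highest in treated WT DCs, at a level below the filter. The genes on either side of the cluster, Dcun1d5 and Tmem123, had log2 differences for the drug in WT DCs of 0.36 and 0.45.

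**Figure D4:**
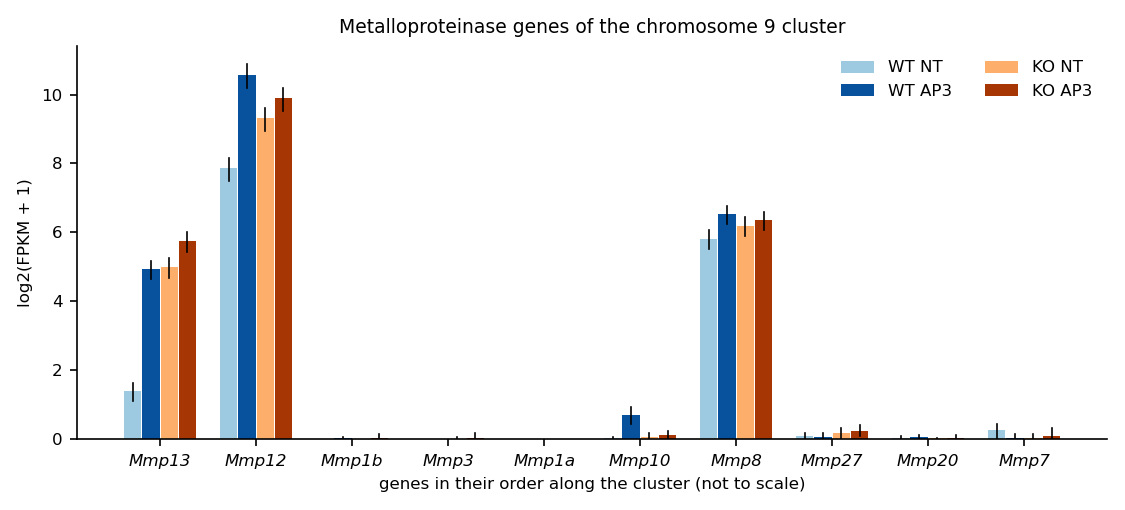
Log2(FPKM + 1) of the 10 Mmp genes of the chromosome 9 cluster, in their order along the chromosome (horizontal axis, not to scale), with bars for the groups and lines for the Cuffdiff 95% interval. Mmp13, Mmp12 and Mmp8 stand out, and Mmp10 is visible in treated WT DCs at 0.638 FPKM.

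For the 3 members with the widest range over the groups, the genes with the smallest distance in centred log2(FPKM + 1) over the 4 groups were taken from all 11397. Nearest to Mmp13 were the small nucleolar RNA gene Snora70 (distance 0.978), Ch25h (1.08) and Ccl7 (1.72). Ch25h, which encodes cholesterol 25-hydroxylase, was at 0.769, 6.44, 9.06 and 17.9 FPKM, low in untreated WT DCs as Mmp13 was. Nearest to Mmp12 were Tgm2 (0.29), Csf1 (0.564) and Pdlim7 (0.647), and Tgm2, a transglutaminase, was at 67.1, 544, 190 and 345 FPKM. Nearest to Mmp19 were Hdc (0.269), Il1r2 (0.303) and Acvrl1 (0.337). With 4 values per gene these distances describe likeness only.

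Of 19 genes for the activation, binding and clearance of MMPs, 13 were measured. Measured means, here and for the lists below, that a gene reached 1 FPKM in some group. The drug's difference was past the threshold for 4 in WT and 2 in Arhgef2-/- DCs, all higher. One of the latter, Plat, the tissue plasminogen activator, was at 0.057, 0.477, 0.0786 and 1.48 FPKM and passed the filter only through treated Arhgef2-/- DCs, so that its call is no support. The genotypes differed for 1 in untreated cells, higher in Arhgef2-/- DCs, and for 3 in treated cells, lower in Arhgef2-/- DCs. The medians were 0.48, 0.32, 0.03 and -0.13. Plaur, the urokinase receptor, was at 90.4 FPKM in untreated WT, 699 in treated WT, 101 in untreated Arhgef2-/- and 281 in treated Arhgef2-/- DCs. It was thus higher after the drug in both genotypes, with no difference beyond the intervals between the untreated groups, unlike Mmp13 and Mmp12. Lcn2, which binds pro-MMP9, was at 886, 1409, 562 and 553 FPKM, and Serpinb2, a serpin that inhibits urokinase, was at 3.04, 11.4, 7.44 and 9.56 FPKM.

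Of 25 matrix substrates, 11 were measured. Of these, 5 (Col1a2, Col6a1, Col6a2, Lama5 and Sparc) passed the filter only through the Arhgef2-/- groups and so had to be higher there, and 1, Nid1, passed it only through treated WT DCs. Of the 11, 5 were called higher and 0 lower in untreated Arhgef2-/- DCs, among them Col1a2, Col6a1 and Sparc, and 3 were higher and 1 lower in treated Arhgef2-/- DCs, Col1a2 and Sparc being 2 of the 3. These counts are therefore no support for a difference of the list, and no median is given for them. The drug's difference was past the threshold for 2 in WT DCs (median 0.07) and 0 in Arhgef2-/- DCs (median 0.17). Thbs1, thrombospondin-1, was at 38.7, 482, 66.3 and 124 FPKM, highest in treated WT DCs. Fn1, fibronectin, was at 4.53, 3.41, 27.2 and 31 FPKM, and Sparc and Col1a2 were under 1 FPKM in WT and between 1.84 and 2.47 FPKM in Arhgef2-/- DCs.

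Of 19 genes in a list of AP-1 and ETS factors, which also holds the Runt-domain factor Runx2, 15 were measured, Runx2 among them. The drug's difference was past the threshold for 4 in WT and 2 in Arhgef2-/- DCs, all higher, with medians of 0.48 and 0.12. The untreated genotypes differed for 0 of the 15 (median 0.00), and 3 were lower in treated Arhgef2-/- DCs (median -0.29). Fosl2 was at 23.2, 112, 19.2 and 54.6 FPKM, Jun at 28, 99, 28.4 and 76.6, Junb at 96, 253, 82.9 and 109, and Ets2 at 14.3, 61.4, 9.97 and 20.5. In untreated cells the intervals of both genotypes overlapped for each of these 4 factors. The part of such factors in the levels of the MMP and TIMP genes was not tested.

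Of 19 ADAM and ADAMTS family genes 9 were measured, among them Adamtsl4, an ADAMTS-like protein without a protease domain, and 1 of these, Adam8, was called higher in WT DCs after the drug, at 168, 463, 200 and 298 FPKM over the 4 groups. No other difference of this list passed the threshold, and its medians in the 4 comparisons of 2 groups ran from 0.05 to 0.10. All 11 cathepsins and neutrophil serine proteases were measured. With the drug, 0 passed the threshold in either genotype, with medians of -0.01. The genotypes differed for 2 in untreated cells and 1 in treated cells, higher in Arhgef2-/- DCs (medians 0.53 and 0.19), among them cathepsin K (Ctsk) at 1.62, 1.61, 8.36 and 8.65 FPKM. The second call in untreated cells was Elane, neutrophil elastase, at 20.7 FPKM (0 to 93.1) in WT and 45.9 (0 to 152) in Arhgef2-/- DCs, with intervals that overlapped.

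**Figure D5:**
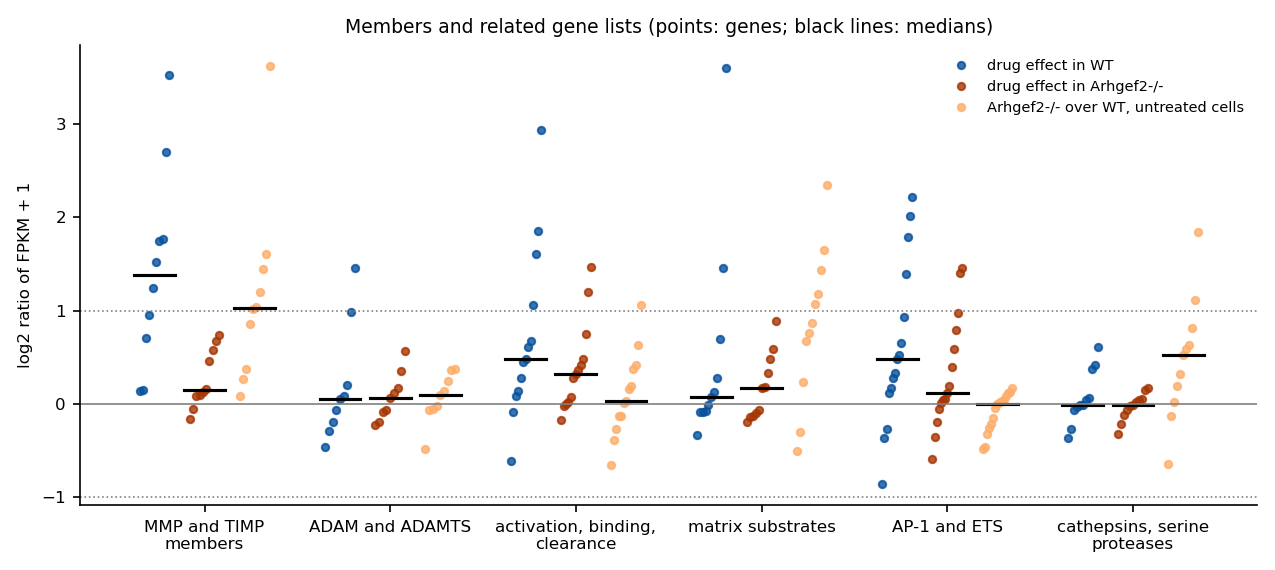
Log2 ratio of FPKM + 1 (vertical axis) of the 10 MMP and TIMP genes and of the measured genes in 5 related lists, for the drug in WT and in Arhgef2-/- DCs and for Arhgef2-/- over WT in untreated DCs, with points for genes, black lines for medians (none for matrix substrates between genotypes) and dotted lines at 1 and -1. The medians for the drug in WT DCs are 1.38 for the 10 genes and 0.48 for the AP-1 and ETS factors.

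BMDC cultures hold other myeloid cells, and in these bulk samples fewer cells of a type and less RNA per cell cannot be told apart. Markers of DCs were present, with Cd74 at 3073 to 4935 FPKM, and Xcr1 was the gene of the 14 under 1 FPKM in every group. With the drug in WT DCs 1 of them, Ccr7, was called higher and 0 lower. Below the threshold but with intervals apart, Irf4 (0.77) was higher there and Flt3 (-0.58), Ciita (-0.98) and Cd209a (-0.64) were lower. The drug's medians were 0.09 in WT and 0.03 in Arhgef2-/- DCs. Between genotypes 0 passed the threshold, with medians of -0.26 in untreated and -0.27 in treated cells. Below it but with intervals apart, Cd209a was higher in untreated (0.61) and treated (0.94) Arhgef2-/- DCs. In treated cells Flt3 (0.62) was also higher in Arhgef2-/- DCs, and Clec10a (-0.67) was lower. Mmp8, Mmp9 and Mmp25 are also neutrophil genes, and 13 further neutrophil markers (Ly6g was not analysed here) summed to 33520 FPKM in untreated WT, 39953 in treated WT, 22688 in untreated Arhgef2-/- and 23080 in treated Arhgef2-/- DCs. S100a8 was the most abundant, at 19401, 23110, 10856 and 11199 FPKM, each above the upper bound of its own interval (16474, 20260, 8912 and 9227). Without it the sum was 14119, 16843, 11832 and 11882 FPKM. In untreated cells 3 of the 13 were called higher and 3 lower in Arhgef2-/- DCs, Mpo being at 26.4 FPKM in WT and 63.1 in Arhgef2-/- and Camp at 189 and 15, and the median over the 13 was 0.10. Elane, with its overlapping intervals, was 1 of the 3 called higher. In treated cells 2 of the 13 were called higher and 5 lower, with a median of -0.29. With the drug, 0 of the 13 passed the threshold in either genotype. The part of these cells in the levels of Mmp8, Mmp9 and Mmp25 was not tested.

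Of the 14 macrophage and monocyte markers, the sums were 917, 1049, 802 and 739 FPKM, and 469, 595, 571 and 527 without Ly6c2, the most abundant. In untreated cells 2 were called higher and 0 lower in Arhgef2-/- DCs. In treated cells 3 were called higher and 3 lower in Arhgef2-/- DCs, with a median of 0.46. With the drug, 2 were called higher and 2 lower in WT DCs and 1, Cd14, higher in Arhgef2-/- DCs. In WT DCs Cd14 was at 14.7 FPKM without and 250 with the drug, C5ar1 at 33.1 and 83.9, Mertk at 5.46 and 0.778, and Ccr2 at 136 and 37.8. C1qa was at 4.22 and 2.16 FPKM in WT and at 29.2 and 26.1 FPKM in Arhgef2-/- DCs. The 10 osteoclast markers (Mmp9, also in the list, was left out as one of the genes described), with Calcr at 0 in all groups, summed to 162, 372, 224 and 273 FPKM. Dcstamp was the most abundant, at 55.7, 205, 55.6 and 102 FPKM, and without it the sum was 106, 166, 168 and 171 FPKM. In untreated cells 2 were called higher in Arhgef2-/- DCs, Ctsk (1.84) and Ocstamp (1.26), and 0 lower. In treated cells Acp5 and Ctsk were called higher and Itgb3 and, at the threshold, Dcstamp lower. With the drug, Dcstamp and Itgb3 were called higher in WT DCs and 0 markers in Arhgef2-/- DCs. The part of such cells in the levels of Mmp9, Mmp12 and Mmp13 was not tested. Of the 11 fibroblast and stroma markers, Thy1 was the most abundant, at 118, 128, 166 and 152 FPKM, and 8 were under 1 FPKM in each group. Without Thy1 the sum was 4.62, 4.26, 5.65 and 5.03 FPKM, most of it in WT DCs from Mmp2, the marker that was lower in Arhgef2-/- DCs. Without Mmp2 as well, which is itself an MMP, the other 9 summed to 0.718 FPKM in untreated WT, 0.494 in treated WT, 4.89 in untreated Arhgef2-/- and 4.34 in treated Arhgef2-/- DCs. The low levels of the 9 were higher in Arhgef2-/- DCs, with intervals apart for 5 of the 9 in untreated and 6 in treated cells. Among all genes above the filter, 4.74% and 13.7% had intervals apart, in either direction. Of the 9, Col1a2 passed the filter only through the Arhgef2-/- groups and the others were below it. These sums and counts are therefore no support for a difference of the list. None of the 9 was higher with the drug with intervals apart in either genotype. The part of such cells in the genotype differences of the MMP and TIMP genes was not tested.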

How the data were processed

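RNA-seq of 8 libraries in 4 groups was used. The authors computed FPKM with Cuffdiff (version 1.05 and build mm10 in the submitters' processing notes) and deposited 1 pooled FPKM, a 95% interval and a status per gene and group. The aligner and annotation behind this table are not given in the sources used here. The columns of WT cells name no genotype and were assigned by elimination. Of 23356 genes, 107 had a status other than OK and were left out, and a filter of 1 FPKM in at least 1 group left 11397. Log2 ratios of FPKM + 1 were taken, and their errors were propagated from the width of the Cuffdiff intervals (normal quantile 1.96). A limma fit needs separate libraries and was not used, so no p-value is given. The computation was checked on test input with known answers. Tools were Python 3.11.15, numpy 2.4.6 and pandas 2.3.3. The alternatives were pseudocounts of 0.1 and 5 FPKM, no filter or 5 FPKM, rescaled groups, non-overlapping intervals as well, and a threshold of 0.5.

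The 10 members and the lists (5 pathway lists and 9 marker lists) were chosen with earlier results of these data known. Genes named were Arhgef2, the members, other Mmp and Timp genes over 1 FPKM, of each list the 4 with the largest log2 ratio in size, and the 3 nearest genes of the 3 members with the widest range. Not all of these list genes are printed. Genes that overlap or flank a member, Mmp10, list genes that passed the filter through a single genotype, and further markers were added after their values were seen. The list of lysosomal and secreted proteases also holds serine and aspartic proteases. Positions and sequences are from RefSeq (GRCm38.p6) and exons and overlaps of genes from GENCODE M21, since the loci of the table start or end with RefSeq for 6 of the 10 members.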

Additional observations from a re-analysis of the deposited data

Results flagged for a closer look

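The drug's log2 difference in WT DCs minus that in Arhgef2-/- DCs had a propagated 95% interval that excluded 0 for 6 of the 10 genes (8.29% of all genes in either direction). It was 2.79 for Mmp13, 2.12 for Mmp12, 1.82 for Mmp19, 1.29 for Timp3, 1.11 for Mmp14 and 0.55 for Mmp8, the interval of the last reaching down to 0.01. The difference was not tested against the spread between duplicates, which the pooled values do not hold. Mmp9, Mmp25, Timp1 and Timp2 had intervals that included 0.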

How the results depend on the processing

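No change of pseudocount, filter, scaling or call rule turned the direction of a called value. Of the 95 counts and medians over the 10 genes computed under the 7 alternatives, 87 stayed near the main value, counts within 1.5 times of it, and 8 moved. Medians were judged by another rule, by which 1.20 to 1.41 was taken as near and 1.03 to 0.74 as moved. With a pseudocount of 5 FPKM, the median was 0.87 for the drug in WT DCs, 0.74 for the untreated genotypes and 0.71 for the difference between genotypes in the drug's effect, 4 genes instead of 6 were higher with the drug in WT DCs and for the difference (Mmp14 and Timp3 being lost from both), 3 instead of 6 were higher in untreated Arhgef2-/- DCs and 0 instead of 1 was lower in treated ones. A larger pseudocount shrinks the ratios of low genes by construction. When the intervals had to be apart (for the difference, those of the drug's groups in at least 1 genotype), 5 genes instead of 6 were higher with the drug in WT DCs, for the untreated genotypes and for the difference, Timp1 being lost from each. With a threshold of 0.5, 3 genes instead of 0 were higher with the drug in Arhgef2-/- DCs, and 3 were higher and 3 lower in treated Arhgef2-/- than WT DCs. Of the values of single genes, 231 stayed within their error and 19 moved, 6 with a pseudocount of 0.1 and 13 with 5.

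Over all genes, most counts moved by more than 1.5 times with the pseudocount. With 0.1 FPKM, those called higher for the drug in WT DCs and for the difference moved by less. Called higher and lower were 417 and 146 for the drug in WT DCs (567 and 389 with 0.1 FPKM, 271 and 47 with 5 FPKM), 92 and 31 in Arhgef2-/- DCs (150 and 62, 59 and 18), 144 and 70 for the untreated genotypes (239 and 133, 62 and 39), 228 and 235 for the treated genotypes (436 and 365, 79 and 127) and 155 and 61 for the difference (224 and 163, 91 and 32). When the intervals had to be apart as well, 3 instead of 31 genes were lower with the drug in Arhgef2-/- DCs, and for the difference 29 instead of 61 were lower. Called higher under this rule, of 11397 genes, were 381 for the drug in WT DCs, 110 for the untreated genotypes and 112 for the difference. With a threshold of 0.5 the counts higher and lower were 1416 and 1255, 439 and 221, 478 and 340, 1094 and 1111, and 767 and 597 in the same order.

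No paired analysis was possible because the table holds 1 pooled value per group, so the fit with a replicate block was not run, nor were the alternatives that leave out a replicate. The depth is unknown, and among the 10 genes Timp3 and Mmp13, both near 1 FPKM in untreated WT DCs, had the widest intervals relative to FPKM there beside Timp1.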

Other observations

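Basophil and mast cell markers (9 genes) summed to 208 FPKM in untreated WT, 234 in treated WT, 402 in untreated Arhgef2-/- and 388 in treated Arhgef2-/- DCs, and Fcer1a was at 6.25, 4.62, 33.5 and 32.3 FPKM. Hdc, the nearest gene to Mmp19, is in this list. The part of these cells in the levels of Mmp9, Mmp13 and Mmp19 was not tested. Lymphocyte markers (7 genes) summed to 33.8, 30.8, 25.5 and 22.3 FPKM. Of the sex-linked genes, Xist was under 1 FPKM in all groups and the Y-linked Eif2s3y was at 39.4 to 42.5 FPKM, with 0 past the threshold in any comparison. Of 10 housekeeping genes, 1, Actb, passed the threshold with the drug in WT DCs, at 3076, 6184, 2904 and 3328 FPKM with overlapping intervals, and 0 passed it in Arhgef2-/- DCs or between genotypes.

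Among genes above the filter with a promoter window, 398 had the AP-1 letters and 8121 did not. Of these, 8.04% and 3.03% were called higher with the drug in WT DCs, and 1.01% and 0.468% in Arhgef2-/- DCs. Called higher in Arhgef2-/- than in WT DCs were 2.76% and 0.997% in untreated cells, and 2.51% and 1.81% in treated cells. The WT drug difference minus the Arhgef2-/- one was over 1 for 3.52% and 0.874%. Mmp12 and Mmp13 are among the 398. These shares were not tested.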
